A study of Mus musculus with 5 samples.

Results

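The genes described here encode the potassium channels that hold the resting potential of heart muscle or answer to transmitters and to the energy state of the cell. They were chosen by family, as a set of 9, and found by gene symbol among the 57186 gene rows of the tables. All 9 were measured well enough to be among the 16412 genes tested. By family they are Kcnj2 and Kcnj12 (the Kir2 inward rectifiers), Kcnj3 and Kcnj5 (the acetylcholine-gated GIRK channel), Kcnj11 and Kcnj8 (the pores of the KATP channel), Abcc8 and Abcc9 (its sulfonylurea receptors) and Kcnk3 (the TASK leak channel).

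Whole cardiac atria of mice were profiled by stranded, polyA-selected RNA sequencing. The group called het here carries the MRC2 E990G variant and is labelled MRC2 E990G-het, and the other group is wild type (WT). MRC2 is a collagen-binding endocytic receptor, and the series is about atrial fibrillation susceptibility and cardiac fibroblasts. The design lists 8 WT and 7 het atria from animals of 4 to 10 months, and 5 libraries were analysed here: het 5, het 6, het 7, WT 7 and WT 8, all labelled batch 2. RNA came from the paired atria of the heart, no treatment is named, and sex, strain and the age of each animal are not given in the sources used here. Labels number the atria without saying that each came from its own animal, so p-values measure the spread between these libraries. Every value is from bulk tissue, where fewer cells of a type and less RNA per cell cannot be told apart.

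Total expected counts were 17784601 to 28353091 per library, and mitochondrial transcripts took 12.98% to 17.7% of them. WT 7 stood apart in sex-linked transcripts, with 938 counts of Ddx3y, a gene of the Y chromosome, and 22 of Xist, where the other 4 libraries had 0 to 3 and 6117 to 15280. Over all tested genes the log2 fold change rose with transcript length: its median was -0.38 in the shortest decile and 0.33 in the longest, where 15.9% of the genes were called higher in het. Values with the length and GC trends of each library removed therefore stand beside the calls below.

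Inward rectifiers pass potassium more readily into the cell than out of it, because magnesium and polyamines block the pore at positive potentials. Kir2 channels carry the background current IK1, which is weaker in atrial than in ventricular muscle. GIRK channels open when the beta-gamma part of a G protein is released by the M2 muscarinic or A1 adenosine receptor, and their current shortens the atrial action potential when the vagus is active. KATP channels are built of Kir6 pores and sulfonylurea receptors, are closed by ATP and opened by magnesium-ADP. In mouse, atrial KATP channels are known for containing SUR1, the product of Abcc8, and ventricular ones for SUR2A, a product of Abcc9. TASK-1, the product of Kcnk3, is a background channel of the K2P family that is closed by extracellular acid.

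Sequences of the alternative forms are shown first, since the transcript results turn on them. Abcc9 ends in one of a pair of alternative last coding stretches. A 176-base exon is included in the models Abcc9-201 and Abcc9-204 and gives the end of the SUR2A type; it is skipped in Abcc9-203, which gives the end of the SUR2B type. Both stretches run for 138 bases up to and including the stop codon, which is in capitals, and 70 of the 138 bases (50.7%) are the same.
Abcc9-201: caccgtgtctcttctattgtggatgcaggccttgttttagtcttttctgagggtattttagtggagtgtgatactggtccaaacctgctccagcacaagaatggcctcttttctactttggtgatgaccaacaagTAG
Abcc9-203: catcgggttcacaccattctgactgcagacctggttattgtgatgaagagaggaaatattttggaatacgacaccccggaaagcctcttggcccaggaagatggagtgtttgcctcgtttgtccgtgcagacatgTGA

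Kcnj3 has a full coding form of 1503 bases without the stop codon (models Kcnj3-201 and Kcnj3-203, which differ in their noncoding parts on the 5′ and the 3′ side) and a short one of 705 bases (Kcnj3-202). The short model lacks a coding exon of 217 bases. It shares the 702 coding bases before the junction with the full form, then adds 1 codon and stops. Shown are the 60 bases before the junction in lower case, followed in capitals by the end of the short form or by the first 60 bases of the exon that it lacks.
Kcnj3-202: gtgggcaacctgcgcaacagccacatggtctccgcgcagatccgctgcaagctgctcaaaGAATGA
Kcnj3-201: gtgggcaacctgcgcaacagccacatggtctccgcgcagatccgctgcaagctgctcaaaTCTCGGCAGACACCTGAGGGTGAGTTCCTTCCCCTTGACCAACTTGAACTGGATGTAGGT

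Upstream windows of the 2 genes called below are given because both moved in the same direction. Each is the 250 bases before the RefSeq gene start in the build GRCm38.p6, with motif matches in capitals. For Kcnj2, the window is at chr11:111065914-111066163 on the plus strand, has a GC content of 65.6%, and holds 2 GC boxes (GGGCGG) and 1 E-box (CACGTG). For Abcc9, it is at chr6:142702275-142702524 on the minus strand, has a GC content of 66.8%, and holds 1 GC box on the other strand (CCGCCC) and 1 MCAT motif on the other strand (GGAATG for CATTCC).
Kcnj2 window: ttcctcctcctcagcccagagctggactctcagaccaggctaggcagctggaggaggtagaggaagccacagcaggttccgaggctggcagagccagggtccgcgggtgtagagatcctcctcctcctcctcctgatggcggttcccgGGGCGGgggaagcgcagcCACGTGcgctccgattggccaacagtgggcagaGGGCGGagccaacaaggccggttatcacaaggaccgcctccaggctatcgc
Abcc9 window: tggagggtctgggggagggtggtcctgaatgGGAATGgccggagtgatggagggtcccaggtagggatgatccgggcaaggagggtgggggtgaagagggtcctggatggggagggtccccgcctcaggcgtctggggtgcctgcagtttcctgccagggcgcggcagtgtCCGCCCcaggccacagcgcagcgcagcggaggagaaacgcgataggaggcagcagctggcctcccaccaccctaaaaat
Searched on both strands were the GC box, E-box and MCAT motifs as spelled above, together with the TATA box (TATAAA), the T-box core written as AGGTGT, and for GATA factors the letters AGATAA. No match overlapped another in the printed windows. Over 32851 windows of the same length, 32.7% held a GC box, 6.02% the E-box, 12.6% the MCAT motif, 12.4% the TATA box, 11.8% the T-box core and 10.0% the GATA motif. Median GC content over those windows was 52.4%. A match describes letters in a window and is not a binding site. A GC box was the one motif that both windows held, and it stood in 32.7% of all windows. Of the 9 genes, 6 had a window in that table.

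Of the 9 channel genes, 2 passed the test as higher in het, Kcnj2 and Abcc9, each about 1.6-fold, and 0 passed as lower (edgeR quasi-likelihood test, Benjamini-Hochberg adjusted p under 0.05 over 16412 genes). Over all tested genes, 2.99% were called higher and 2.66% lower, 5.64% in all. At an unadjusted p under 0.05 the counts were 3 higher and 0 lower, where 24.7% of all genes had such a p. DESeq2 called 3 higher and 0 lower, where it called 5.28% of all genes higher and 4.75% lower. Log2 fold changes were positive in 7 of the 9 genes, with a median of 0.20 against -0.0014 over all tested genes. When length and GC trends were removed, 0 of the 9 were called in either direction by edgeR (3 higher and 0 lower at an unadjusted p under 0.05, against 13.4% of all genes in either direction), where 0.104% of all genes were called higher and 0.0427% lower, 0.146% in all. When the length trend alone was removed, again 0 of the 9 were called, where 0.067% of all genes were called higher and 0.0609% lower, 0.128% in all. Both called genes lie in the longest length decile, in which 15.9% of genes were called higher. With each het library left out in turn, neither gene passed. Over all genes, 0 were called higher and 1 lower without het 5, 5 and 6 without het 6, and 0 and 0 without het 7.

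**Figure D1:**
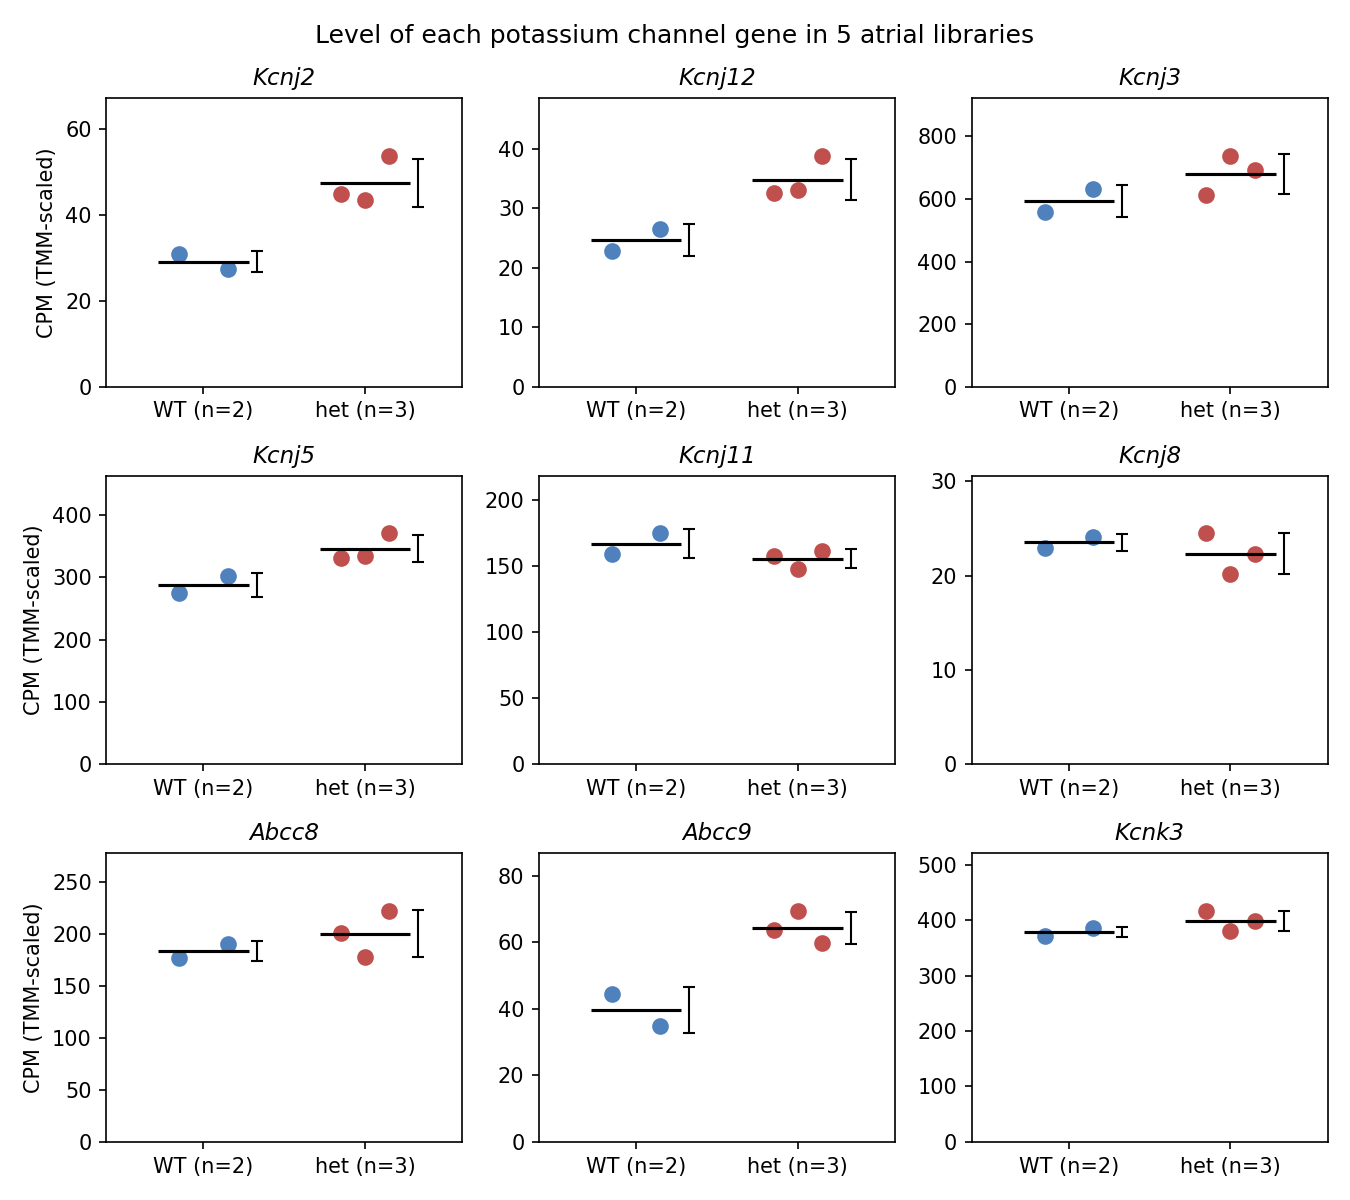
Level of each channel gene in CPM (counts scaled to library size with TMM factors, linear axes from 0) in the 2 WT and 3 het libraries; points are libraries, horizontal lines group means and bars the SD around them. The 3 het points lie above both WT points for Kcnj2, Kcnj12, Kcnj5 and Abcc9, and the groups overlap for the other 5 genes.

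Kcnj2 encodes Kir2.1, the main pore of ventricular IK1. Its level was 44.8, 43.6 and 53.8 CPM (counts scaled to library size) in het 5, 6 and 7, and 30.9 and 27.5 CPM in WT 7 and WT 8, with 470 to 1562 counts per library. Every het library lay above both WT libraries. Group means were 47.4 ± 5.57 CPM (SD, n = 3) and 29.2 ± 2.41 CPM (SD, n = 2), a log2 fold change of 0.70 (SE 0.14; 1.63-fold, 95% interval 1.31 to 2.01; adjusted p = 0.0270). With the length and GC trends removed the log2 fold change was 0.42 (adjusted p = 0.241), and with the length trend alone removed it was 0.50 (adjusted p = 0.119). Without WT 7 it was 0.79 (adjusted p = 0.0365), and without WT 8 it was 0.63 (adjusted p = 0.0486). Leaving out het 5, het 6 or het 7 gave 0.74, 0.76 and 0.60 with adjusted p values of 0.0566, 0.0833 and 0.0745.

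Kcnj12 encodes Kir2.2, which can join Kir2.1 in one channel. It was measured at 32.5, 33.1 and 38.8 CPM in the het libraries and at 22.8 and 26.5 CPM in WT 7 and WT 8. These groups did not overlap either. Means were 34.8 ± 3.49 CPM (SD, n = 3) and 24.7 ± 2.61 CPM (SD, n = 2), and the log2 fold change of 0.50 (SE 0.14, 95% interval 0.19 to 0.81) missed the threshold in edgeR (adjusted p = 0.0591). DESeq2 put it past the threshold at the same size (0.50, adjusted p = 0.0400). Unlike Kcnj2, this gene is of middle length, in decile 5, where the median log2 fold change was -0.035 and 0.548% of genes were called higher. Removing the length and GC trends moved its log2 fold change to 0.66 (adjusted p = 0.0685). Without WT 7 it was 0.40, and without WT 8 it was 0.62. Fits in edgeR without het 5, het 6 or het 7 gave 0.55, 0.54 and 0.41, with adjusted p values of 0.0917, 0.129 and 0.168.

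Of the summed TPM (a level scaled for transcript length as well as for library size) of the Kir2 pair, Kcnj2 took 34.3%, 32.9% and 34.2% in the het libraries and 34.0% and 27.9% in WT 7 and WT 8. The groups overlapped. Means were 33.8% ± 0.80 (SD, n = 3) and 31.0% ± 4.37 (SD, n = 2), a difference of 2.84 points (exact two-sided permutation p = 0.4; adjusted over the 4 subunit pairs, 0.8). With 3 against 2 libraries the 10 splits cannot give a two-sided p below 0.2. Per length, Kcnj12 thus stood above Kcnj2 in all 5 libraries, with a Kcnj2 to Kcnj12 ratio of TPM of 0.386 to 0.521. Leaving out WT 8 turned the sign of the share's difference, to -0.25 points.

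Kcnj3 and Kcnj5 encode Kir3.1 and Kir3.4, which together form the atrial GIRK channel. Kcnj3 was the highest of the 9 genes per length, and in CPM it measured 611.9, 737.6 and 691.7 in the het libraries and 558.6 and 630.1 in WT 7 and WT 8. The groups overlapped, since het 5 lay below WT 8. Its log2 fold change was 0.20 (SE 0.14, 95% interval -0.12 to 0.51; adjusted p = 0.434). After the length and GC trends were removed its sign turned, to -0.06 (adjusted p = 0.884).

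Kcnj5 measured 331.7, 334.6 and 370.7 CPM in the het libraries and 274.5 and 301.6 CPM in WT 7 and WT 8. All 3 het libraries were above both WT libraries, a separation that 21.1% of all tested genes showed in that direction and 21.1% in the other, 42.3% in all. The log2 fold change of 0.26 (SE 0.13, 95% interval -0.03 to 0.55) did not pass (adjusted p = 0.247), and removal of the length and GC trends left it at 0.12 (adjusted p = 0.755). Among the 9 genes such a separation in CPM was seen for 4, Kcnj2, Kcnj12, Kcnj5 and Abcc9, each with het above WT.

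Kcnj3 made up 65.1%, 70.5% and 67.0% of the summed TPM of the GIRK pair in the het libraries and 67.5% and 69.9% in WT 7 and WT 8. The ranges overlapped. The means of 67.5% ± 2.73 (SD, n = 3) and 68.7% ± 1.66 (SD, n = 2) differed by -1.16 points (exact permutation p = 0.8; adjusted 0.8). Leaving out het 5 or WT 8 turned this sign, to 0.0598 and 0.0188 points. In TPM, Kcnj3 exceeded Kcnj5 by 1.87 to 2.39 times in the 5 libraries. These values count the short coding form of Kcnj3 too. The full coding form of Kcnj3 stood at 83.3, 106.9 and 104.6 TPM in het and 45.5 and 37.2 TPM in WT. Full coding models of Kcnj5 stood at 76.1, 81.8 and 97.4 TPM in het and 61.7 and 59.9 TPM in WT. By summed full forms Kcnj3 thus lay above Kcnj5 in every het library and below it in both WT libraries. The order in het rests on Kcnj3-203, which held 3.46%, 5.90% and 6.18% of the gene's expected counts there. Kcnj3-201 alone stood at 68.1, 73.1 and 69.8 TPM in het and 45.5 and 30.6 TPM in WT. Those values lie below the full coding models of Kcnj5 in all 5 libraries. The division of reads among models comes without an error, and this order was not tested.

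Kcnj11 encodes Kir6.2, the pore of the KATP channels of heart muscle and beta cells. It measured 157.7, 147.9 and 161.8 CPM in the het libraries and 159.5 and 175.0 CPM in WT 7 and WT 8, with overlap. The log2 fold change was -0.10 (SE 0.13, 95% interval -0.38 to 0.17; adjusted p = 0.670). Kcnj8 encodes Kir6.1, the pore typical of vascular smooth muscle and pericytes. Its values were 24.5, 20.1 and 22.3 CPM in the het libraries and 22.9 and 24.1 CPM in WT 7 and WT 8, again with overlap, and its log2 fold change was -0.08 (SE 0.14, 95% interval -0.38 to 0.23; adjusted p = 0.793). Neither sign held under every scaling: on log2(TPM + 1) the values were 0.094 for Kcnj11 and 0.075 for Kcnj8.

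Abcc8 encodes SUR1. It measured 201.6, 177.8 and 222.7 CPM in the het libraries and 177.3 and 190.8 CPM in WT 7 and WT 8, with overlap between the groups. The log2 fold change was 0.13 (SE 0.14, 95% interval -0.17 to 0.42; adjusted p = 0.623).

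Abcc9 encodes SUR2. Its level was 63.7, 69.5 and 59.9 CPM in the het libraries and 44.4 and 34.7 CPM in WT 7 and WT 8, from 594 to 1740 counts. The het libraries all lay above the WT libraries. Means were 64.3 ± 4.80 CPM (SD, n = 3) and 39.6 ± 6.88 CPM (SD, n = 2), a log2 fold change of 0.70 (SE 0.14; 1.62-fold, 95% interval 1.31 to 2.01; adjusted p = 0.0270). Removing both trends left 0.44 (adjusted p = 0.153), and removing the length trend alone left 0.49 (adjusted p = 0.105). Without WT 7 the log2 fold change was 0.89 (adjusted p = 0.0193). Without WT 8 it was 0.55 and no longer passed (adjusted p = 0.0509). Leaving out het 5, het 6 or het 7 gave 0.71, 0.64 and 0.75, with adjusted p values of 0.0581, 0.0938 and 0.0615.

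The sulfonylurea receptors were unequal in level. Abcc8 took 86.3%, 83.9% and 88.3% of their summed TPM in the het libraries and 89.5% and 92.6% in WT 7 and WT 8. Every het library lay below both WT libraries. Means were 86.2% ± 2.20 (SD, n = 3) and 91.1% ± 2.15 (SD, n = 2), a difference of -4.91 points with an exact two-sided permutation p of 0.2, the smallest this design can give (adjusted 0.8). Without each library in turn the difference was -6.44 to -3.39 points. Abcc8 TPM exceeded Abcc9 TPM by 5.21 to 12.5 times. All models of Abcc8 count toward these shares and ratios, including partial models that held 45.5% to 69.0% of the gene. The full SUR1 model stood at 25.9, 23.4 and 32.6 TPM in het and 18.4 and 14.7 TPM in WT. Abcc9 stood at 8.62, 9.99 and 9.11 TPM in het and 6.16 and 4.21 TPM in WT. A share based on the full model was not tested.

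For the KATP pores the share differed little between the groups. Kcnj11 took 84.8%, 86.7% and 86.0% of the summed TPM of Kcnj11 and Kcnj8 in the het libraries and 85.5% and 85.9% in WT 7 and WT 8. Means of 85.8% ± 0.97 (SD, n = 3) and 85.7% ± 0.28 (SD, n = 2) differed by 0.0898 points (exact permutation p = 0.8; adjusted 0.8), less than the SD in either group. That sign turned when raw counts were used or when het 6 or WT 7 was left out.

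Kcnk3 encodes TASK-1, a leak channel known for atrial expression. It measured 417.0, 380.1 and 397.7 CPM in the het libraries and 372.1 and 385.3 CPM in WT 7 and WT 8. Het 6 lay below WT 8, so the groups overlapped. The log2 fold change was 0.07 (SE 0.13, 95% interval -0.21 to 0.35; adjusted p = 0.780).

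In TPM, which allows genes to be set beside each other, the order of mean levels over the 5 libraries was Kcnj3 (161.2 ± 33.3, SD), Kcnk3 (108.9 ± 10.3), Kcnj5 (75.7 ± 15.4), Kcnj11 (60.9 ± 3.78), Abcc8 (56.1 ± 7.11), Kcnj12 (15.5 ± 4.21), Kcnj8 (10.1 ± 0.73), Kcnj2 (7.64 ± 2.57) and Abcc9 (7.62 ± 2.38). Kcnj3, from 128.8 to 198.1 TPM, did not overlap Kcnk3. The ranges of Kcnk3, Kcnj5, Kcnj11 and Abcc8 each overlapped the next in this order, and so did those of Kcnj8, Kcnj2 and Abcc9. Neighbouring ranges did not overlap after Kcnj3, after Abcc8 (52.1 to 68.7 TPM) and after Kcnj12 (11.2 to 21.4 TPM, a narrow gap above Kcnj8). On this scale het lay above WT without overlap for 7 of the 9 genes, against 27.7% of all tested genes (11.2% the other way, 38.9% in all). They include 3 that overlapped in CPM: Kcnj3 (179.4 ± 31.0 against 133.9 ± 7.30 TPM), Kcnj11 (62.6 ± 4.26 against 58.5 ± 1.01 TPM) and Kcnk3 (115.5 ± 5.92 against 98.9 ± 4.96 TPM; all SD, n = 3 and 2). With limma-trend on log2(TPM + 1) none of the 9 passed, where 0 of all 16412 genes were called higher and 1 lower. The median of all tested genes was 0.099 on that scale. By gene TPM, with all models counted, GIRK, TASK-1 and the Kir6.2 and SUR1 pair made up the upper group of levels in these atria. The Kir2 genes, Kir6.1 and SUR2 made up the lower one.

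**Figure D2:**
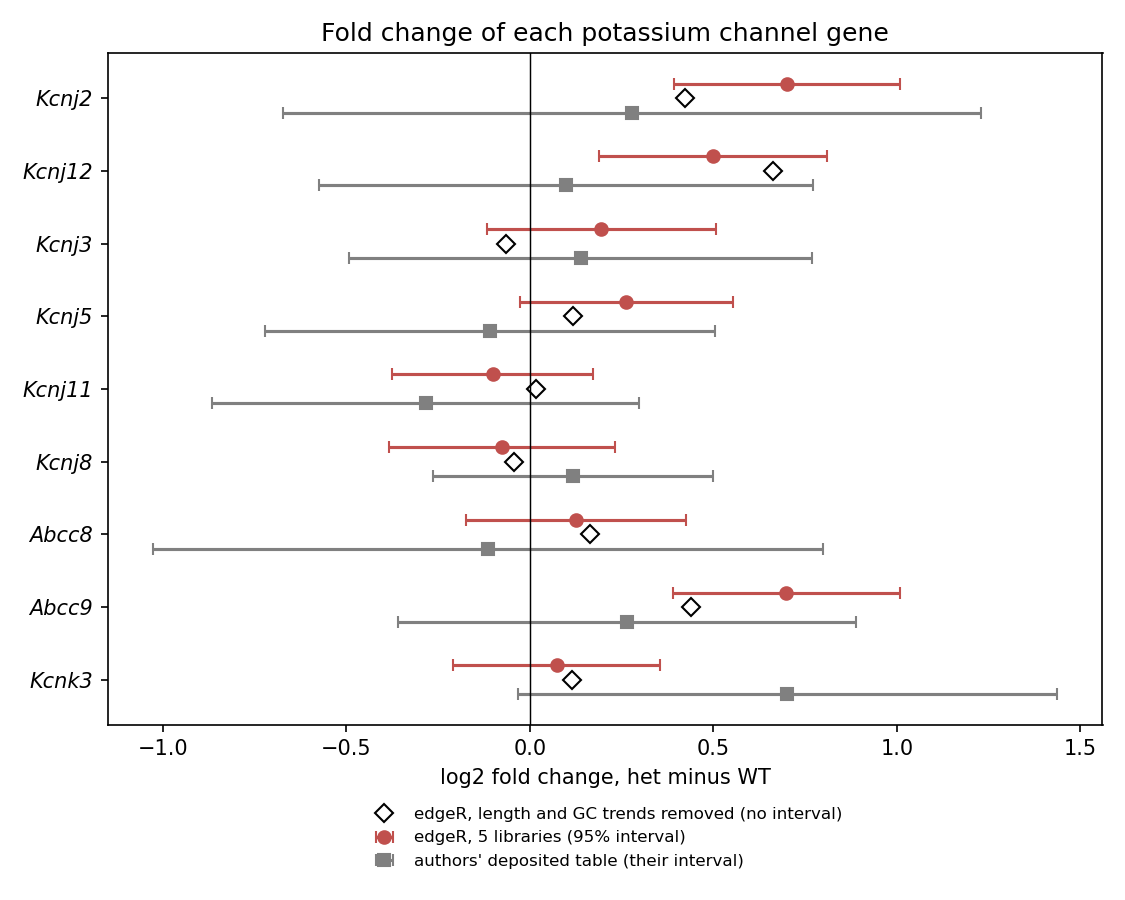
Log2 fold change, het minus WT, of each channel gene: red circles with 95% intervals are the edgeR values of the 5 libraries, open diamonds the edgeR values with length and GC trends removed (no interval), and grey squares the authors' deposited values with their intervals. The edgeR intervals of Kcnj2, Kcnj12 and Abcc9 lie above 0, and all 9 intervals of the authors' deposited table span 0.

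In the authors' deposited table of het against WT, none of the 9 genes had an adjusted or an unadjusted p under 0.05. Over the 14927 genes of that table, 0% had an adjusted p and 5.6% an unadjusted p under 0.05. The t statistic in the authors' deposited table is exactly 0 for 9779 genes, those with an absolute log2 fold change of at most 0.262903, and for no gene at or above 0.26305. Those limits lie on either side of a 1.2-fold change, so its p-values appear to refer to a minimum change of that size and not to 0, as the edgeR p-values do; this was read from the values and no label records it. The authors' deposited table gives Kcnj2 a log2 fold change of 0.28 (interval -0.67 to 1.23, p = 0.539) and Abcc9 one of 0.26 (-0.36 to 0.89, p = 0.509). Kcnj12 has 0.098 there (interval -0.57 to 0.77), where edgeR gave 0.50. Kcnj5 (-0.11), Abcc8 (-0.11) and Kcnj8 (0.12) have the other sign there than in edgeR (0.26, 0.13 and -0.08). Kcnj3 (0.14) and Kcnj11 (-0.28) have the same sign as in edgeR (0.20 and -0.10). Kcnk3 has the smallest p of the 9 in the authors' deposited table, with a log2 fold change of 0.70 (interval -0.03 to 1.44, p = 0.0507, adjusted p = 0.896). Its edgeR value over the 5 libraries was 0.07, inside that interval. Which libraries entered that table is not given in the sources used here.

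**Figure D3:**
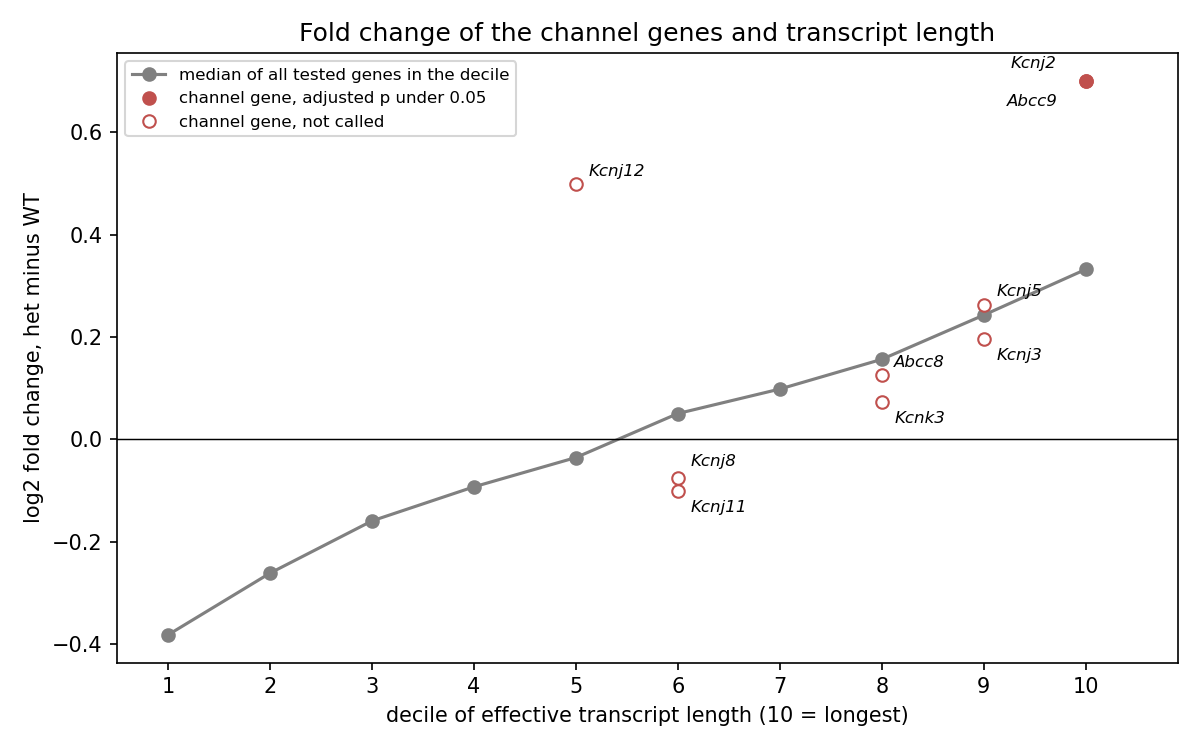
Log2 fold change, het minus WT, of the channel genes (red; filled where the adjusted p was under 0.05) by decile of effective transcript length, with the median of all tested genes in each decile (grey line). Kcnj2 and Abcc9, which coincide at 0.70, are in the longest decile, whose median is 0.33, and Kcnj12 lies far above its decile's median of -0.035.

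Read against genes of like length, the other channel genes lay near the medians of their deciles. Kcnj3 (0.20) and Kcnj5 (0.26) belong to decile 9, whose median was 0.24. Abcc8 (0.13) and Kcnk3 (0.07) belong to decile 8, with a median of 0.16. Kcnj11 (-0.10) and Kcnj8 (-0.08) belong to decile 6, with a median of 0.050. Once the length and GC trends had been removed the values were 0.16 for Abcc8, 0.11 for Kcnk3, 0.02 for Kcnj11 and -0.04 for Kcnj8, none of which passed. The part that transcript length has in the values of Kcnj2 and Abcc9 was not tested beyond the fits with the trends removed.

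The deposited transcript tables divide each gene's reads among its models by estimate, and they hold no error for that division. Of 33 models of the 9 genes, 15 in 6 genes had a mean isoform percent (share of the gene's TPM) of at least 5 in a gene with more than 1 such model. The groups did not overlap for 7 of these 15, 3 with het higher and 4 with het lower, against 25.7% of all 32379 models chosen in the same way (13.1% higher and 12.6% lower). Shares within a gene sum to 100, so models of 1 gene do not count separately. By the exact permutation test 0 of the 15 had an adjusted p under 0.05, and 0 had an unadjusted one, which this design cannot give. A transcript usage test in edgeR, chosen after the isoform percents were seen, called 1 of 18 models, Kcnj5-202, where it called 0.6% of all 31850 models tested. An unadjusted p under 0.05 was seen for 3 of the 18. The share of all models with such a p was not counted, so no result is drawn from that number.

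**Figure D4:**
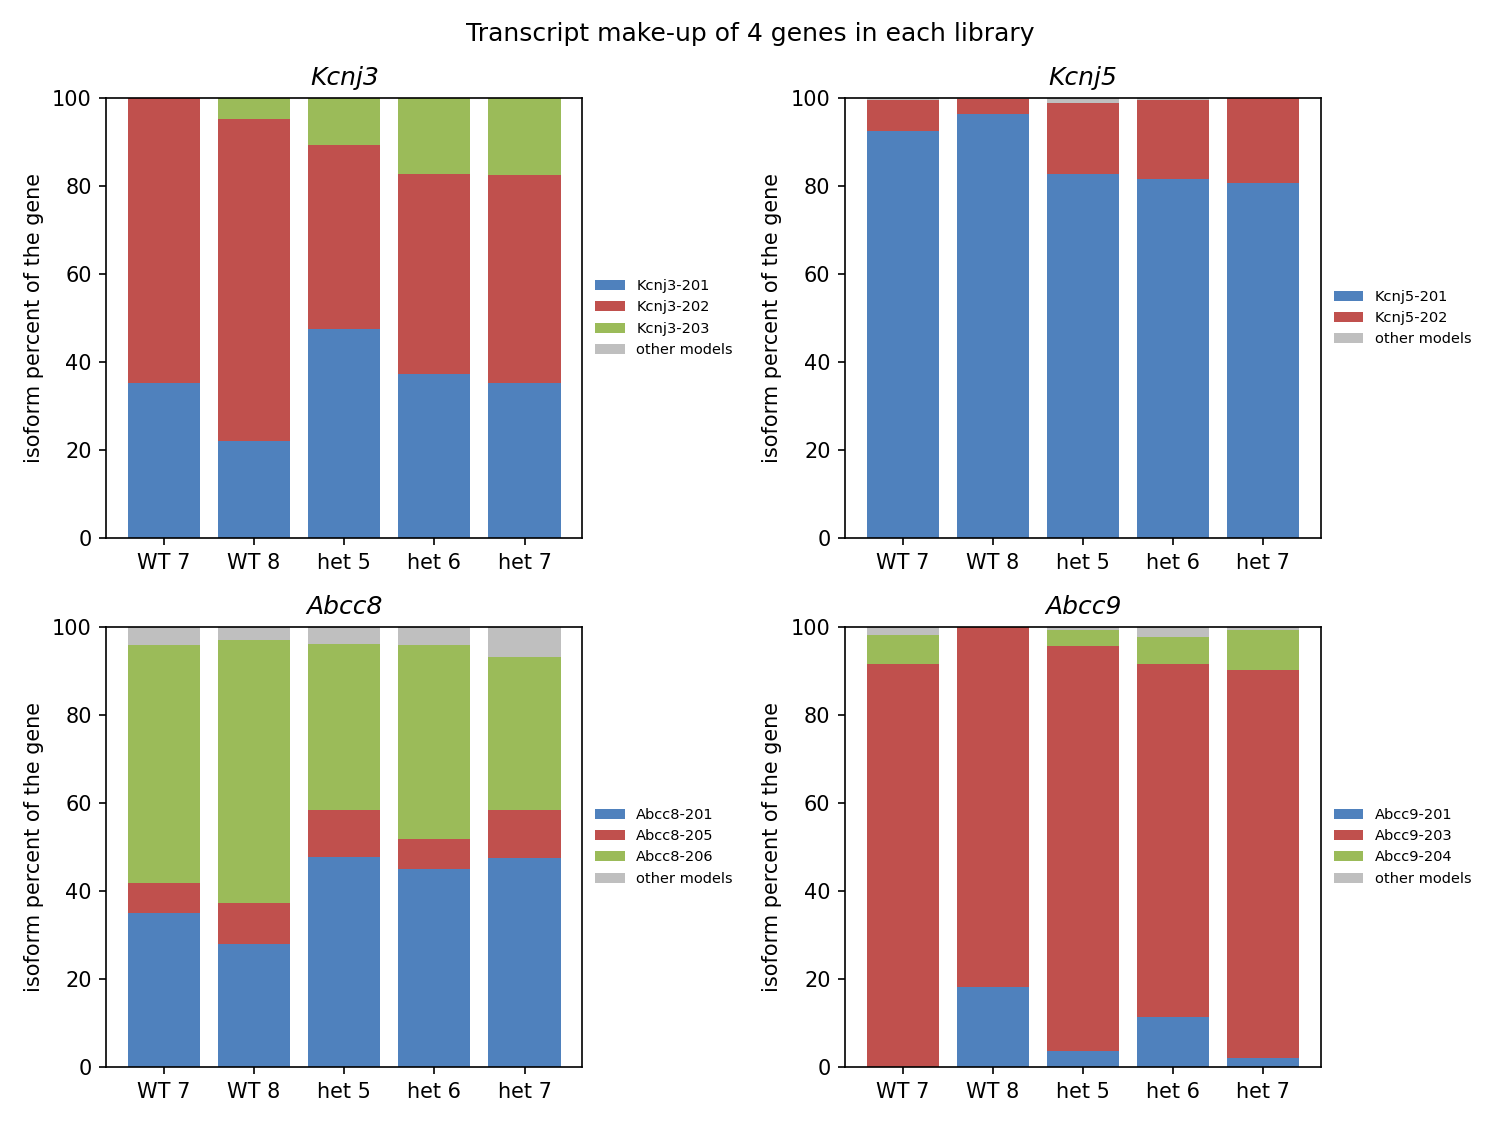
Isoform percent (share of the gene's TPM) of the models of Kcnj3, Kcnj5, Abcc8 and Abcc9 in each library; bars stack to 100 and grey marks all other models. Kcnj3-202 and Abcc8-206 take less, and Kcnj5-202 takes more, of their genes in the 3 het libraries than in the 2 WT libraries, while Abcc9-203 takes most of Abcc9 in every library.

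Kcnj3-202, the short coding form, held 42.0%, 45.6% and 47.2% of Kcnj3 in the het libraries and 64.7% and 73.3% in WT 7 and WT 8. Het lay below WT in every library, by 24.1 points in the means (exact permutation p = 0.2, adjusted 0.429). In the edgeR usage test, which works on counts, its unadjusted p was 0.423. Kcnj3-203, the full coding form with the shorter noncoding parts (1679 bases), held 10.6%, 17.3% and 17.6% in the het libraries and 0% and 4.71% in WT 7 and WT 8. It was 12.8 points higher in het, and 4.39 points higher as a share of the gene's expected counts (edgeR usage log2 difference 1.85, adjusted p = 0.714; exact permutation p = 0.2). Kcnj3-201, the longest model (5215 bases), overlapped between groups, at 47.4%, 37.2% and 35.2% against 35.3% and 22.0%.

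Summed by coding form, a grouping chosen after the percents were seen, the full form of Kcnj3 stood at 83.3, 106.9 and 104.6 TPM in the het libraries and at 45.5 and 37.2 TPM in WT 7 and WT 8. All het libraries were above both WT libraries. The means of 98.3 ± 13.03 TPM (SD, n = 3) and 41.3 ± 5.85 TPM (SD, n = 2) have a ratio of 2.38 (exact permutation p = 0.2). The short form stood at 60.3, 89.5 and 93.4 TPM against 83.3 and 101.9 TPM, with overlap (exact permutation p = 0.6). As a share of the gene, the full form was 55.1% ± 2.65 (SD, n = 3) in het and 31.0% ± 6.05 (SD, n = 2) in WT.

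Kcnj5-201 and Kcnj5-202 have the same coding sequence of 1257 bases. Kcnj5-202 (3101 bases) lacks a noncoding 5′ exon that Kcnj5-201 (4685 bases) has, and it ends earlier on the 3′ side. Kcnj5-202 held 16.1%, 18.0% and 19.3% of the gene in the het libraries and 7.17% and 3.55% in WT 7 and WT 8. It was 12.4 points higher in het, and its usage rose by 1.27 on the log2 scale (edgeR usage test, adjusted p = 0.0280; exact permutation p = 0.2). In TPM it stood at 12.4, 14.8 and 18.8 in het against 4.44 and 2.13 in WT, a ratio of means of 4.67. Kcnj5-201, though lower as a share, was also higher in TPM. It stood at 63.7, 67.0 and 78.6 in het against 57.3 and 57.8 in WT, a ratio of means of 1.21. Models with the full coding sequence together held 99.5% ± 0.51 (SD, n = 3) of Kcnj5 in het and 99.8% ± 0.17 (SD, n = 2) in WT. The difference in shares therefore lay between noncoding ends.

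**Figure D5:**
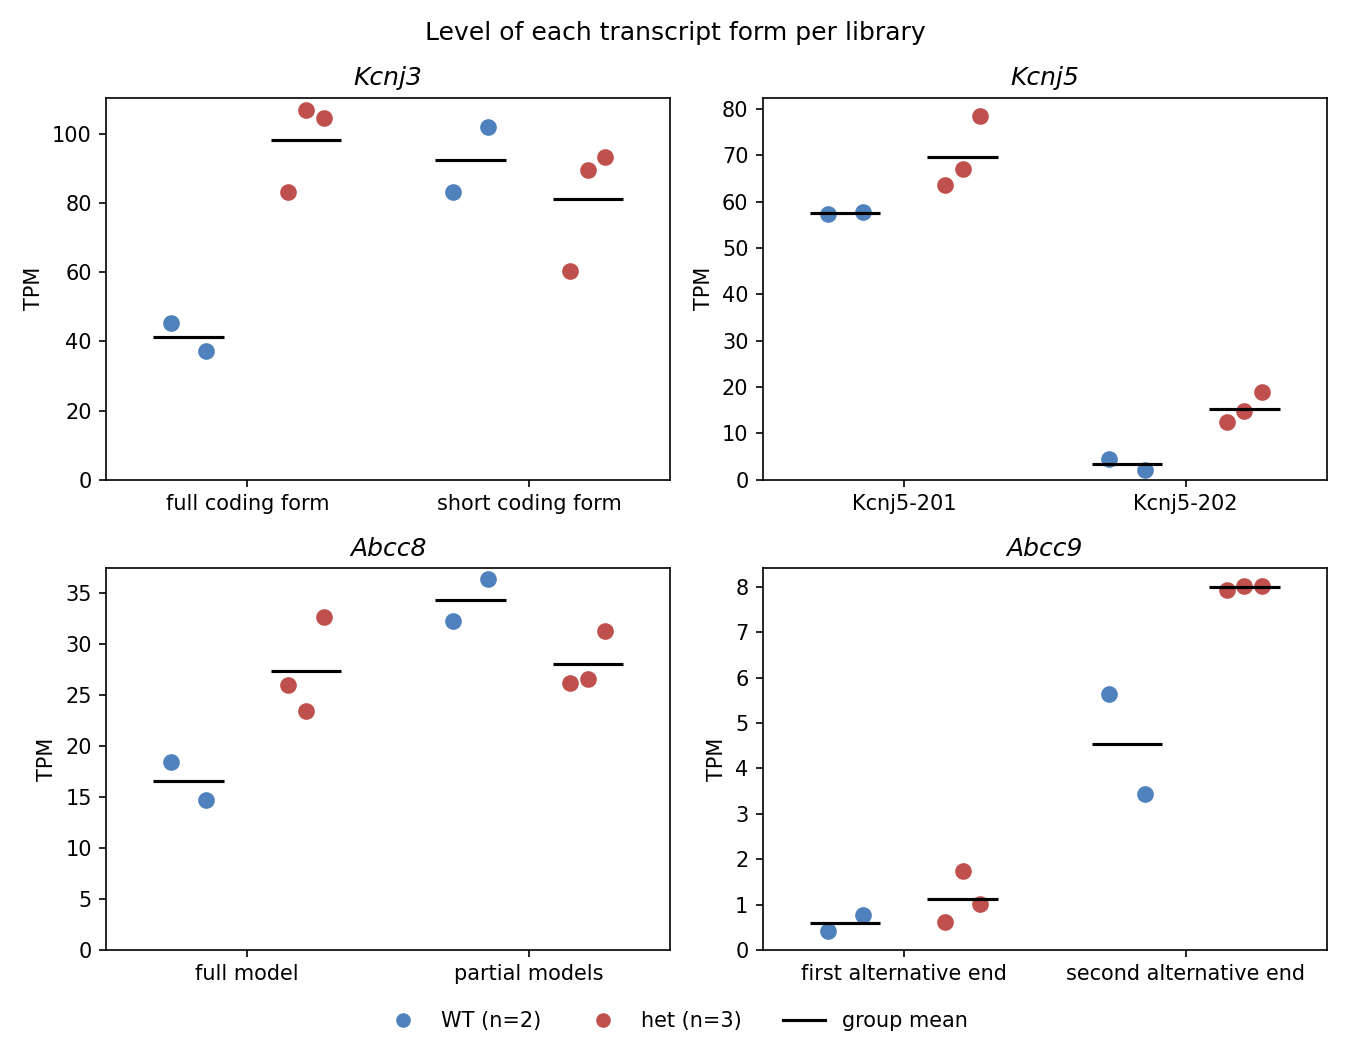
TPM of each transcript form of Kcnj3, Kcnj5, Abcc8 and Abcc9 per library (points; WT blue, het red) with group means (lines), on linear axes from 0. The full coding form of Kcnj3, Kcnj5-202, the full model of Abcc8 and the second alternative end of Abcc9 lie higher in all 3 het libraries than in both WT libraries, and the partial models of Abcc8 lie lower.

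Abcc8-201 is the full model of SUR1, with 39 exons and 4764 coding bases. It held 47.8%, 44.9% and 47.5% of Abcc8 in the het libraries and 34.9% and 27.9% in WT 7 and WT 8, a difference of 15.3 points with no overlap (exact permutation p = 0.2, adjusted 0.429). Abcc8-206 covers only the 3′ part of the gene, in 26 exons and 2832 bases, and held 37.7%, 44.2% and 34.7% against 54.2% and 59.8%. The means differed by -18.1 points, without overlap (exact permutation p = 0.2; edgeR usage test, adjusted p = 0.401). Full-model TPM was 25.9, 23.4 and 32.6 in het against 18.4 and 14.7 in WT, a ratio of means of 1.65, while the partial models summed to 26.2, 26.5 and 31.3 against 32.2 and 36.3, a ratio of 0.817. That sum joins Abcc8-206 with Abcc8-205, a noncoding model with a retained intron. Abcc8-206 alone was lower, at 20.4, 23.0 and 23.8 TPM against 28.6 and 31.5 TPM. Abcc8-205 overlapped, at 5.75, 3.53 and 7.44 TPM against 3.59 and 4.85 TPM.

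Over all genes, the isoform percent of the longest model of a gene was higher in all het libraries for 16.9% of 10560 genes and lower for 10.2%. Among the models tested here the longest of their genes were Abcc8-201, which was higher in het, Kcnj5-201 and Kcnj11-205, which were lower (-12.8 and -3.09 points), and Kcnj3-201, Abcc9-204 and Kcnj8-202, which overlapped. The part that model length has in these shares was not tested.

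Abcc9 showed no separation of its ends. The SUR2B-type model Abcc9-203 held 92.1%, 80.2% and 88.2% of the gene in the het libraries and 91.5% and 81.8% in WT 7 and WT 8. In all 5 libraries it was the main model, and the groups overlapped. Models with the SUR2A-type end summed to 11.9% ± 5.16 (SD, n = 3) in het and 12.5% ± 8.12 (SD, n = 2) in WT. In TPM the SUR2B-type end stood at 7.94, 8.02 and 8.03 in het and at 5.63 and 3.44 in WT (ratio of means 1.76, exact permutation p = 0.2). The SUR2A-type end was at 0.62, 1.74 and 1.02 in het and at 0.41 and 0.77 in WT, with overlap (exact permutation p = 0.4). By these estimates most of the difference in Abcc9 TPM lay in transcripts with the SUR2B-type end, which held most of the gene in both groups.

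Models of the other genes varied little. Kcnj11-205, the single-exon model with the full coding sequence, held 88.8%, 86.3% and 90.7% in the het libraries and 90.9% and 92.5% in WT 7 and WT 8. Those groups did not overlap, though the difference was only -3.09 points (exact permutation p = 0.2). It was -1.95 points without het 6 and -0.29 points as a share of the gene's expected counts. Kcnj8-202, the full coding model, held 89.0% to 91.4% in het, 90.0% in WT 7 and 100% in WT 8, where the short model Kcnj8-201 had 0 counts. Kcnj2 and Kcnj12 were each assigned wholly to 1 model, Kcnj2-201 and Kcnj12-202, and Kcnk3-201 held 99.1% to 100% of Kcnk3.

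Markers of other cells that use these channels were read in the same libraries. Kir6.1 and SUR2B form the KATP channel of pericytes and vascular smooth muscle. The summed TPM of 6 pericyte markers was 92.3 to 100.4 in het and 71.5 to 76.0 in WT, without overlap, and 0 of the 6 were called by edgeR; the highest of them was Rgs5, with a log2 fold change of 0.37 (adjusted p = 0.116), followed by Pdgfrb (0.24) and Notch3 (0.17), while Cspg4 (-0.33), Higd1b (-0.74) and Vtn (-0.34) had the other sign. Smooth muscle markers (4 genes) summed to 53.3 to 81.5 TPM in het and 99.0 to 99.7 in WT, and of them Tagln was called lower (-0.93). The part of these cells in the level of Abcc9 was not tested. Kcnj8, which is typical of the same cells, overlapped between the groups, as given above.

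The summed TPM of 6 cardiomyocyte genes was 23997 to 26619 in het and 30045 to 34193 in WT, a sum carried by Mb, Tnnt2 and Myh6 (mean 9445, 8953 and 8795 TPM). Of those 6, 0 were called lower by edgeR and 1 higher, the calcium release channel Ryr2 (0.69); Ttn (0.30) was not called. The summed TPM of 4 atrial genes was 68281 to 79477 in het and 87939 to 97905 in WT, and 2 of them were called lower, Nppa (-0.64) and Myl4 (-0.68), both short transcripts of atrial muscle. Fibroblast markers (6 genes) summed to 865 to 934 TPM in het and 519 to 766 in WT, a sum carried by Dcn (mean 593 TPM, log2 fold change 0.39, not called). Of those 6, Lum (0.50) was called higher, while Pdgfra (0.67), Tcf21 (-0.05), Col1a2 (-0.22) and Col1a1 (-0.24) were not called. Nerve and Schwann cell markers summed to 15.9 to 19.7 TPM in het and 12.2 to 15.7 in WT, and skeletal muscle markers to 4.57 to 7.13 and 8.73 to 11.8 TPM; neither pair overlapped, and edgeR called 0 of the 5 and 0 of the 2 genes tested in them. Endothelial markers overlapped. Of 3 ventricular markers, Myl2 ranged from 4.00 to 319.0 TPM over the 5 libraries, so the libraries differed in that signal, and their sums overlapped between the groups (125 to 527 and 226 to 281 TPM). Sftpc, of lung, was at 0 in all 5 libraries, and sinus node markers overlapped. The labelled tissue thus carried high atrial muscle markers in every library, and the part of these cell types in the channel genes was not tested.

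Around the channels, 68 genes in 5 lists were read in the same fit, 55 of them tested, and 3 were called, beside 5.64% of all genes. The list median was 0.10 against -0.0014 over all tested genes. Once both trends had been removed, 0 were called in edgeR (10 at an unadjusted p under 0.05, where 13.4% of all genes had one). DESeq2 called 6, where it called 10% of all genes.

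On the muscarinic and adenosine route to the GIRK channel, 1 of 23 genes was called higher and 1 lower, beside 2.99% and 2.66% of all genes, with a median of -0.024. Chrm2, the M2 receptor through which acetylcholine opens the channel, measured 394.7, 406.5 and 381.6 CPM in the het libraries and 218.9 and 252.9 CPM in WT 7 and WT 8. It was higher in every het library, with a log2 fold change of 0.74 (SE 0.14, adjusted p = 0.0229). Gnb2, a G protein beta subunit, was lower, at 146.4, 137.6 and 149.5 CPM against 195.4 and 206.0 CPM (log2 fold change -0.47, SE 0.12, adjusted p = 0.0456). After removal of both trends these values were 0.41 for Chrm2 (adjusted p = 0.158) and -0.12 for Gnb2 (adjusted p = 0.723). Chrm2 is a long transcript (effective length 5284 bases) and Gnb2 a short one (1011 bases). Chrm2 was called in 9 of 17 alternatives and lost its call without het 5, het 6 or het 7 (adjusted p of 0.0563, 0.0871 and 0.0615 in edgeR). Gnb2 was called in 5 of 17, and in none of the 5 edgeR fits that each left out 1 library (adjusted p of 0.0660 without WT 7, 0.0894 without WT 8, 0.0979 without het 5, 0.164 without het 6 and 0.102 without het 7).

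Among 14 partners that anchor or traffic these channels, 0 were called higher by edgeR and 1 lower, with a median of 0.15. At an unadjusted p under 0.05 there were 4 higher and 2 lower, where 24.7% of all genes had such a p in either direction, and DESeq2 called 2 higher, where it called 5.28% of all genes higher. Cav3, the caveolin of muscle, stood at 34.1, 28.6 and 34.6 CPM in the het libraries and 45.5 and 57.9 CPM in WT 7 and WT 8. Its log2 fold change was -0.67 (SE 0.15, adjusted p = 0.0310), and -0.35 (adjusted p = 0.322) once length and GC trends had been removed. Cav3 is a short transcript too, with an effective length of 766 bases. It was called in 8 of 17 alternatives and lost its call in edgeR without WT 8 (-0.47, adjusted p = 0.0966), het 5 (0.0597), het 6 (0.106) or het 7 (0.0665).

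Of 9 genes that make or split PIP2, the lipid that all Kir channels need to open, 0 were called by edgeR, DESeq2 or limma-voom, which called 5.64%, 10% and 2.8% of all genes, and 2 had an unadjusted p under 0.05 in edgeR. Those highest in level were Pip4k2c (45.4 TPM, log2 fold change -0.04) and Plcb4 (27.8 TPM, 0.29). Other K2P channels were low: 7 of 13 were tested, 0 were called by edgeR, DESeq2 or limma-voom (2 at an unadjusted p under 0.05 in edgeR), and the highest, Kcnk6 and Kcnk5, had mean levels of 2.22 and 1.75 TPM. Other Kir pore genes were lower still, with 2 of 9 tested and 0 called by any of these tools (1 at an unadjusted p under 0.05 in edgeR); Kcnj15 and Kcnj14 stood at 0.258 and 0.224 TPM. Kcnj2, Kcnj12, Kcnj3, Kcnj5, Kcnj11 and Kcnj8 were therefore the Kir genes with appreciable transcript in these libraries, and Kcnk3 the K2P gene.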

How the data were processed

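The build GRCm39 and the tools STAR, RSEM, SAMtools, Trim Galore, FastQC, MultiQC, edgeR and limma are listed per the submitters' processing notes; versions and settings are not given in the sources used here. The deposited RSEM tables hold expected counts, which the authors did not normalize, TPM, which the authors scaled for length and depth, and isoform percent, the authors' share of each model in its gene. A further table that the authors deposited compares het with WT by log2 fold changes, scores (t) and p-values.

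Expected counts were first rounded. Genes that passed edgeR's default expression filter (16412 of 57186) went, after TMM scaling, into the robust quasi-likelihood test of edgeR 4.0.16 (R 4.3.3), het against WT, with Benjamini-Hochberg adjustment over all of them and a threshold of 0.05. The SE of a log2 fold change is its size over the root of its F statistic. The biological coefficient of variation was 0.18. Depth of 17784601 to 28353091 counts per library sets the precision. Trends on length and GC content, known for 97.9% of tested genes, were estimated per library with mgcv 1.9.3 and entered as offsets. Alternatives were DESeq2 1.42.0, limma 3.58.1 (voom, and trend on log2(TPM + 1) or log2(TPM + 0.1)), other scalings and filters, and each library left out. Subunit and transcript shares were compared by exact two-sided permutation tests. Gene models, exons and sequences came from GENCODE M21 on GRCm38, in which all 33 models have the same length as in the files; no coordinates of the files were used.

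The 9 genes and the pathway and marker lists were chosen with earlier results of these data known. Named were all 9, from each pathway list the called genes (or, where none was called, the 2 highest in TPM), from marker lists the highest in TPM, the 3 genes most like each called gene, and genome neighbours. Further markers were named after their values were seen. The transcript usage test, the sums by coding form and the alternatives for the lists were added after the data were seen. In counts simulated for this comparison on 15964 genes, with 200 changed, edgeR recovered 54% at a log2 fold change of 1 and 92% at 2, with 7 false among 153 calls. The simulated counts had the same biological coefficient of variation for every gene and held no length or GC trend. Their share of false calls therefore does not carry over to these libraries.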

Additional observations from a re-analysis of the deposited data

How the results depend on the processing

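No paired analysis was possible because no label pairs a het library with a WT library. The groups share only 1 replicate number (7), and no label says that it marks a pair. The count of channel genes called higher was 2 and went to 0 in several fits. With the length trend removed it was 0, where 11 of all genes were called higher and 10 lower. With length and GC trends removed it was 0, where 17 and 7 were called. Under limma-voom with sample quality weights it was 0, where 0 and 0 of all genes were called. Under limma-trend on log2(TPM + 1) or log2(TPM + 0.1) it was 0, where 0 and 1 or 2 and 3 were called. Leaving out het 5, het 6 or het 7 gave 0 channel genes, where 0 and 1, 5 and 6 or 0 and 0 of all genes were called. Kcnj2 was called in 9 of 17 alternatives (log2 fold change 0.42 to 0.83, adjusted p 0.000159 to 0.241) and Abcc9 in 8 (0.44 to 0.89, adjusted p 0.000128 to 0.153). Kcnj12 was called in 3 (0.40 to 0.66 over all 17), which were library size alone, every gene with a count, and DESeq2. Signs turned for Kcnj3 (-0.064) and Kcnj11 (0.017) with length and GC trends removed, for Kcnk3 (-0.022) with the length trend removed, and for Kcnj11 (0.094 and 0.095) and Kcnj8 (0.075 and 0.082) on log2(TPM + 1) and log2(TPM + 0.1), where the median of all genes moved to 0.099 and 0.13. That median was -0.14 with every gene with a count. No channel gene was called lower under any alternative.

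Pathway genes called higher were 1, against 5 with library size alone, 7 with every gene with a count, 4 in DESeq2 and 0 with the length trend removed, with length and GC trends removed, with quality weights and on both TPM scales; leaving out 1 library gave 0 to 5. Those called lower were 2, against 1 with library size alone, 1 in limma-voom and 0 in the same 5 fits; leaving out 1 library gave 0 to 1. Over all genes, the calls of 490 higher and 436 lower became 0 and 1 without het 5, 5 and 6 without het 6, and 0 and 0 without het 7 (3595, 3139 and 3549 genes at an unadjusted p under 0.05), 795 and 391 with library size alone, 867 and 780 in DESeq2 and 237 and 222 in limma-voom.

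The Kcnj2 share turned to -0.25 points without WT 8, with -0.25 to 5.92 over the libraries left out. The Kcnj3 share turned to 0.0598 without het 5 and 0.0188 without WT 8 (range -2.63 to 0.0598). The Kcnj11 share turned to -0.17 on raw counts, -0.35 without het 6 and -0.11 without WT 7 (range -0.35 to 0.61). The Abcc8 share kept its sign in all 7 alternatives. The transcript usage test called 1 model where the permutation test called 0. Isoform percent differences turned for Abcc9-203 (-2.41 without het 5, -0.45 without het 7, -4.61 without WT 8; range -4.61 to 5.07), for Abcc9-201 (5.63, range -12.6 to 5.63), Abcc9-204 (-0.44, range -0.44 to 6.26), Kcnj8-202 (0.45, range -9.52 to 0.45) and Kcnj8-201 (-0.45, range -0.45 to 9.52) without WT 8, and for Kcnj11-203 (-0.46, range -0.46 to 2.32) without het 6. The cause of these changes was not tested. With 3 against 2 libraries, single comparisons cannot reach an exact p below 0.2.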

Other observations

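The genes whose levels followed those of the called channel genes most closely over the 5 libraries were ranked by the root mean square difference of centred log2 CPM, among 12913 characterised genes of at least 1 CPM. Next to Kcnj2 stood Fndc1 (0.043), Ptgir (0.049), a prostacyclin receptor, and Garem1 (0.062), with log2 fold changes of 0.64, 0.64 and 0.74. Next to Abcc9 stood Ash1l (0.044), a histone methyltransferase, Cped1 (0.051) and Fmnl2 (0.056), a formin, with log2 fold changes of 0.72, 0.78 and 0.68. With 5 points per profile this is a description.

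Several of the channel genes lie side by side in the genome, by the gene order of GRCm38. Kcnj8 and Abcc9 are adjacent on chromosome 6, with log2 fold changes of -0.08 (adjusted p = 0.793) and 0.70 (adjusted p = 0.0270). On the far side of Kcnj8, Ldhb, a lactate dehydrogenase subunit, had -0.52 (adjusted p = 0.0439), and beyond Abcc9, Cmas had -0.12 (adjusted p = 0.623). Kcnj11 and Abcc8, adjacent on chromosome 7, had -0.10 and 0.13. Kcnj2 and Kcnj12 share chromosome 11 with Mrc2, with 63 and 867 protein-coding genes in between. Beside Kcnj2 lie Kcnj16, which was too low to test, and Sox9 (0.34, adjusted p = 0.386). Beside Kcnj12 lie Map2k3 (-0.20, adjusted p = 0.404) and Tnfrsf13b (0.061, adjusted p = 0.953).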
